A study of Mus musculus with 6 samples.

Results

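Chemokines and other secreted factors that dying, damaged or senescent cells release were examined in mouse pancreatic islets exposed to cisplatin. The group holds 9 genes chosen by symbol, namely the chemokines Cxcl1, Cxcl2, Cxcl10, Cxcl16, Ccl2 and Ccl7, the cytokine genes Il6 and Gdf15, and the protease inhibitor gene Timp1. Every probe row with one of these symbols was taken, which gave 12 of 30146 rows and 9 of 21400 genes. Islets are the endocrine clusters of the pancreas. They came from 3 male wild-type C57Bl/6 mice, and the islets of each mouse were split between cisplatin at 10 uM and its vehicle, 0.9% saline, for 48 hours in RPMI culture medium with serum and antibiotics. Both groups therefore hold 3 libraries from the same 3 mice, and library 1, 2 or 3 of either group comes from the same mouse. Cisplatin is a platinum drug that crosslinks DNA. RNA was read with TempO-Seq, in which pairs of short probes that meet on an RNA are ligated, amplified and counted, so each row reports one short stretch of a transcript and levels of different probes cannot be compared with each other.

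Chemokines are small secreted proteins that draw leukocytes along a gradient through receptors on those cells. CXC chemokines such as Cxcl1 and Cxcl2 attract neutrophils, and CC chemokines such as Ccl2 and Ccl7 attract monocytes. Many of their genes are switched on by the transcription factor NF-kappaB, and together with Il6, Gdf15 and Timp1 they are commonly counted among the factors that senescent cells secrete.

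In cisplatin islets 4 of the 5 member rows with enough counts for a test were higher than in vehicle islets, namely those of Cxcl1, Ccl7, Timp1 and Cxcl16, and 0 were lower (edgeR quasi-likelihood test, adjusted p under 0.05). At an unadjusted p under 0.05 the numbers were also 4 and 0, as they were with DESeq2. Over all 9381 tested rows 11.1% were called higher. Cxcl1 and Ccl7, with 0 to 2 counts in each vehicle library, met the count filter only through their cisplatin libraries, so once kept they could only come out higher, and nothing is read from the count of 4 against that share. Timp1, with 26, 7 and 24 vehicle counts, also did not meet that filter on its vehicle libraries alone. With no filter on counts the same 4 rows were called. Every cisplatin library was above every vehicle library in these rows, which for Cxcl1 and Ccl7 also follows from the filter, and in 19.1% of all tested rows. The fifth tested row, Gdf15, did not pass, and the 7 remaining rows, those of Cxcl2, Cxcl10, Ccl2 and Il6, held too few counts to be tested.

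The cisplatin libraries held 1116916 to 1366829 counts and the vehicle libraries 1470227 to 2272276. Mitochondrially encoded rows took 2.83% to 28.6% of cisplatin counts and 0.188% to 1.74% of vehicle counts, with the highest share in cisplatin library 3. Values below are CPM, counts scaled to a common library size with TMM factors that align libraries on the bulk of their rows. The median log2 fold change of all tested rows was -0.07 on that scale and -0.54 when libraries were scaled by their totals alone, and the calls of the 4 member rows were the same on both scales. Islet hormone and secretory granule markers summed to 74269 to 155086 CPM with cisplatin and 123297 to 233952 with vehicle, and 2 of these 8 markers, Gcg and Chga, were lower.

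**Figure D1:**
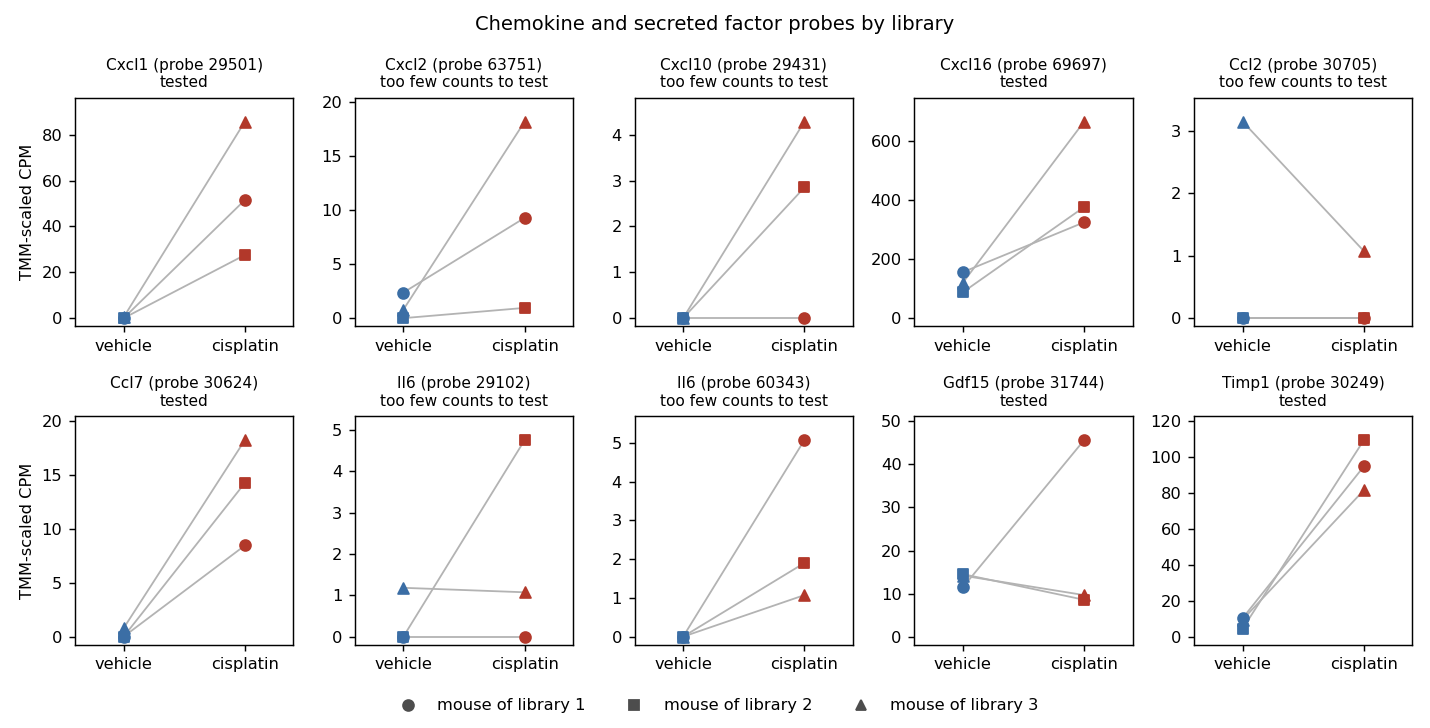
TMM-scaled CPM of the 10 member probes with any count, in vehicle and cisplatin libraries, with a symbol per mouse and a line joining the libraries of a mouse. All lines rise for Cxcl1, Cxcl16, Ccl7 and Timp1, whereas for Gdf15 the line of mouse 1 alone rises (11.5 to 45.7 CPM).

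Cxcl1 and Cxcl2 code for closely related neutrophil attractants that act through the receptor Cxcr2, and the genes lie side by side on chromosome 5 (Cxcl1 at chr5:90891241-90893115 and Cxcl2 at chr5:90903871-90905938, both on the plus strand of GRCm38 in the GENCODE M21 annotation), 10755 bases apart. The Cxcl1 probe had 61, 29 and 80 counts in cisplatin libraries 1, 2 and 3 and 0, 0 and 1 in the vehicle libraries. It was nearly silent with vehicle and present in every cisplatin library. On the CPM scale the cisplatin libraries held 51.6, 27.6 and 85.8, against 0, 0 and 0.394 for vehicle. Pooled over libraries, the ratio was 357 with an exact 95% counting interval of 63.3 to 14191, and the test gave an adjusted p of 5.1e-05. The vehicle count lay in library 3. Without that library the cisplatin level was at least 73.6-fold higher, set against a floor of 3 counts over the remaining vehicle libraries.

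Cxcl2 was covered by a pair of probes. Probe 63751 had 11, 1 and 17 counts with cisplatin and 6, 0 and 2 with vehicle. The groups overlapped, since cisplatin library 2 (0.951 CPM) lay below vehicle library 1 (2.37 CPM), although each mouse had a higher value with cisplatin. The pooled ratio was 7.62 (95% counting interval 3.40 to 19.3), and the row did not pass when it was tested with no filter (adjusted p = 0.158). It also met the filter without cisplatin library 2 and without each single vehicle library. The log2 fold changes were then 2.51 to 4.23, and none passed (adjusted p = 0.0554 to 0.303 with edgeR). Probe 29356 had 0 counts in all 6 libraries, which allows up to 0.947 CPM with cisplatin and 0.451 CPM with vehicle. In GENCODE transcripts, Cxcl2 and the neighbouring family gene Cxcl3 share an exact run of 157 bases, whereas the longest run that Cxcl1 shares with either is 23 bases. The most abundant Cxcl3 probe had 0 counts in both groups. The probes' own sequences were not used here, so whether a Cxcl2 probe can also read Cxcl3 was not tested.

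Promoters of member genes are shown because NF-kappaB, which switches on many chemokine genes, binds a short motif, kappaB. RefSeq promoter windows (GRCm38.p6, 250 bases before to 50 after the annotated start) matched 6 of the 9 genes. They are Cxcl1 (chr5:90890995-90891294, plus strand), Cxcl2 (chr5:90903649-90903948, plus strand), Cxcl10 (chr5:92348840-92349139, minus strand), Il6 (chr5:30012864-30013163, plus strand), Timp1 (chrX:20869916-20870215, plus strand) and Gdf15, with 2 windows. Each sequence reads 5′ to 3′ on the strand of the gene, and capitals mark kappaB and AP-1 matches.
Cxcl1: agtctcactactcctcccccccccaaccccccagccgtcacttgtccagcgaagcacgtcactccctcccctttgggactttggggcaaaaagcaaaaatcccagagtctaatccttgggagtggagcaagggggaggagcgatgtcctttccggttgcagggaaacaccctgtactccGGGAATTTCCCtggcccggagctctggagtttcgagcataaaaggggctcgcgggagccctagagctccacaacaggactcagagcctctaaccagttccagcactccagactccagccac
Cxcl2: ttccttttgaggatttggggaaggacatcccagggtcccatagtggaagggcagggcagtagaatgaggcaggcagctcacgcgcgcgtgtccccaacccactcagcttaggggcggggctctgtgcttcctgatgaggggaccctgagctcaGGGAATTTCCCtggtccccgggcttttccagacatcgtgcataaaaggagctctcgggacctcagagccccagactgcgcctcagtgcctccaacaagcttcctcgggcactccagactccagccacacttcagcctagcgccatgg
Cxcl10: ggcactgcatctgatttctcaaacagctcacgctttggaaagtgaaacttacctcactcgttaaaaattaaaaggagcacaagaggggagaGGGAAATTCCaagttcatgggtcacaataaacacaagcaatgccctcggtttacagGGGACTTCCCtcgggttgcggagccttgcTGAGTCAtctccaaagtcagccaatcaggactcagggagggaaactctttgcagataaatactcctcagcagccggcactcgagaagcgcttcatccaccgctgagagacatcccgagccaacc
Il6: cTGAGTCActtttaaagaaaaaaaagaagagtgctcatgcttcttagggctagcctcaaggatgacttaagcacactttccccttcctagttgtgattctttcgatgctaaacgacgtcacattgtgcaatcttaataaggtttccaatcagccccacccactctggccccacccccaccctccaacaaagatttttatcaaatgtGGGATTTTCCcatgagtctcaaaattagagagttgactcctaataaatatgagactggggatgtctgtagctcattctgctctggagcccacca
Timp1: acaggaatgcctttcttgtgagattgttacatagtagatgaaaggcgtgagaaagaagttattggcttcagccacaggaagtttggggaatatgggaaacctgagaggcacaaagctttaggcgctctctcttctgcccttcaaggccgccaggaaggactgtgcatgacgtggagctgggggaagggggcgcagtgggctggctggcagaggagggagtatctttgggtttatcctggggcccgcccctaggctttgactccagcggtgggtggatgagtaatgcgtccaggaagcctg

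A kappaB match on either strand was present in the windows of Cxcl1, Cxcl2, Cxcl10 and Il6, 4 of the 6 genes, and in 4.51% of all 32851 promoter windows of this length. In Cxcl1 and in Cxcl2 overlapping matches on the opposite strands form a single run of letters that is the same in both genes. It begins 71 bases before the start of Cxcl1 and 97 bases before that of Cxcl2. The Cxcl10 window held matches 159 and 103 bases before the start, and the Il6 window held one 44 bases before it. The AP-1 motif, searched as TGANTCA on both strands, was found in Cxcl10 and Il6 and in 7.81% of all windows. The interferon-response motif ISRE was found in Cxcl10 and in 3.44% of all windows. A p53 half-site match lay in the Il6 window, against 8.36% of all windows. No kappaB match overlapped a match to another motif. The windows of Timp1 and Gdf15 held none of these motifs. Of the 4 called members, Cxcl1 held a kappaB match, Timp1 held none, and Ccl7 and Cxcl16 had no window. Cxcl2, Cxcl10 and Il6, the other genes with a kappaB match, held too few counts to be tested in the reported fit. Matches are letters in a window and were not tied to the counts by any test.

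**Figure D2:**
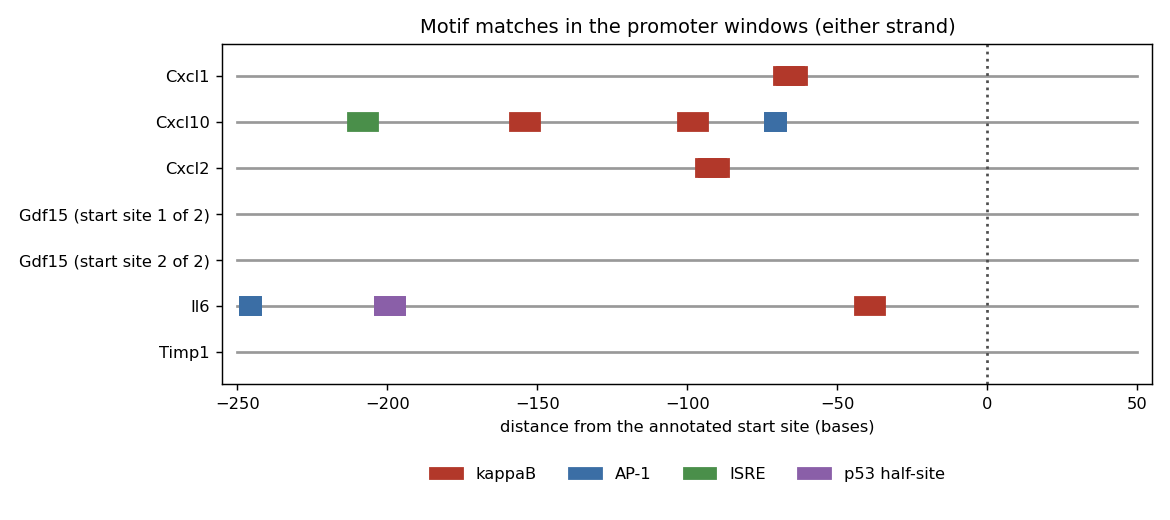
Positions of motif matches in the RefSeq promoter windows, as distance in bases from the annotated start (dotted line), for 6 member genes and 7 windows. Boxes mark kappaB, AP-1, ISRE and p53 half-site matches on either strand, and kappaB boxes lie between 159 and 44 bases before the start in Cxcl1, Cxcl2, Cxcl10 and Il6.

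Cxcl10 is an interferon-induced chemokine that draws activated T cells through Cxcr3 (chr5:92346638-92348889, minus strand). Its probe had 0, 3 and 4 counts with cisplatin and 0 in every vehicle library. These 7 counts are at least 4.90-fold above the vehicle floor of 3 counts over the group, but cisplatin library 1 was at 0 like the vehicle libraries, and with no filter the row did not pass (adjusted p = 0.199).

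Cxcl16 (chr11:70453983-70459984, minus strand) codes for a chemokine made as a membrane-bound scavenger receptor and released by shedding, and its receptor is Cxcr6. It had the most counts of all member rows, 384, 396 and 621 with cisplatin and 394, 139 and 305 with vehicle. Scaled for depth, the cisplatin libraries held 325, 376 and 666 CPM, against 156, 87.8 and 120.0 CPM for vehicle. All cisplatin libraries were above all vehicle libraries, and library 3, which also had the largest mitochondrial share (28.6%), was the highest. The part of that share in the Cxcl16 value was not tested. The mean rose from 121 ± 34.0 to 456 ± 184 CPM (SD, n = 3), a log2 fold change of 1.91 ± 0.34 (SE, adjusted p = 0.00128 with edgeR). The log2 fold change was 1.54 without cisplatin library 3 and 1.98 when mitochondrial rows were left out, and both passed the test. Since the row was also well counted in vehicle islets, its change is measured between 2 detected levels, unlike that of Cxcl1.

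Ccl2 and Ccl7 are monocyte attractants that signal through Ccr2, and their genes are neighbours on chromosome 11 (Ccl2 at chr11:82035571-82037453 and Ccl7 at chr11:82045712-82047525, both on the plus strand), 8258 bases apart. The Ccl7 probe had 10, 15 and 17 counts with cisplatin and 0, 0 and 2 with vehicle. Its cisplatin values of 8.46, 14.3 and 18.2 CPM were all above the vehicle maximum of 0.787 CPM. The pooled ratio was 44.1 (95% counting interval 11.5 to 376), with an adjusted p of 0.00483 in the edgeR test. Both vehicle counts lay in library 3, and without it Ccl7 was at least 18.2-fold higher against the floor of 3 counts. The adjusted p was 0.0492 without vehicle library 1, the weakest of the 6 fits that left a library out.

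Ccl2 was hardly detected in either group. Its probe 30705 had 0, 0 and 1 counts with cisplatin and 0, 0 and 8 with vehicle, so 8 of its 9 counts came from vehicle library 3. The pooled ratio was 0.263 with a counting interval of 0.00592 to 1.96, and the row did not pass with no filter (adjusted p = 0.664). Probe 66651 had 0 counts in all 6 libraries. The transcripts of Ccl2 and Ccl7 share no exact run over 23 bases. That Ccl7 and Ccl2 moved differently was not tested.

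Il6 codes for interleukin 6, an inflammatory cytokine that signals through the receptor Il6ra and the shared subunit Il6st (chr5:30013114-30019981, plus strand). Probe 60343 had 6, 2 and 1 counts with cisplatin and 0 in each vehicle library, at least 6.30-fold higher against the floor, so its groups did not overlap. Probe 29102 had 0, 5 and 1 counts with cisplatin and 0, 0 and 3 with vehicle, a ratio of 4.20 with an interval of 0.898 to 26.0. The probes of the same gene differed in which cisplatin library was highest, library 1 in one and library 2 in the other. Neither passed with no filter (adjusted p = 0.172 and 0.607), so a change of Il6 was not detectable at this depth.

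Gdf15 codes for a stress-induced hormone of the TGF-beta family whose receptor Gfral signals with Ret (chr8:70629393-70632456, minus strand). Its probe gave 54, 9 and 9 counts in the cisplatin libraries, against 29, 23 and 36 for vehicle. In CPM the cisplatin libraries held 45.7, 8.56 and 9.65 and the vehicle libraries 11.5, 14.5 and 14.2. Cisplatin library 1 stood above all vehicle libraries, and the other 2 stood below all of them. The mean was 21.3 ± 21.1 CPM with cisplatin and 13.4 ± 1.67 with vehicle (SD, n = 3), and the log2 fold change of 0.69 ± 0.65 did not pass (adjusted p = 0.484 with edgeR). Without cisplatin library 1 it was -0.45 (adjusted p = 0.622). The vehicle values varied little, and the spread lay in the cisplatin group.

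Timp1 codes for a secreted inhibitor of matrix metalloproteases (chrX:20870166-20874735, plus strand). It had 112, 115 and 76 counts with cisplatin and 26, 7 and 24 with vehicle. After scaling, the cisplatin libraries held 94.7, 109 and 81.5 CPM and the vehicle libraries 10.3, 4.42 and 9.45 CPM. Every cisplatin library was well above every vehicle library, and the cisplatin libraries differed little. The mean rose from 8.05 ± 3.17 to 95.2 ± 13.9 CPM (SD, n = 3), a log2 fold change of 3.52 ± 0.41 (SE, adjusted p = 8.6e-05 with edgeR). Leaving out any single library gave 3.25 to 3.76. With library totals alone the log2 fold change was 3.05, and the row was called.

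**Figure D3:**
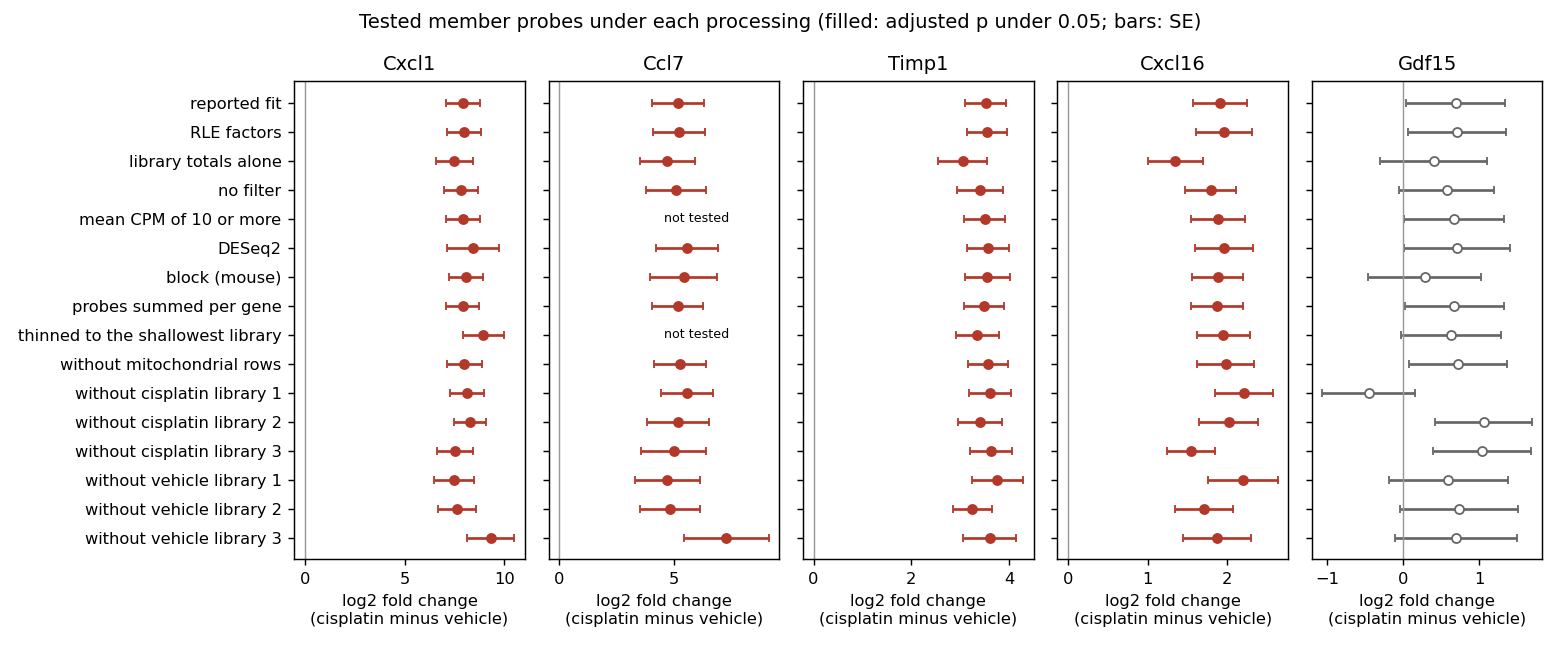
Log2 fold change (cisplatin minus vehicle) with its SE for the 5 tested member rows under the reported fit and each alternative processing. Filled points passed the test. Cxcl1, Timp1 and Cxcl16 passed under each processing shown and Ccl7 wherever it was tested, and Gdf15 ran from -0.45 without cisplatin library 1 to 1.05 without cisplatin library 2.

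The rows most like Cxcl16 over the 6 libraries, among 7884 tested rows with a mean of 10 CPM or more, were Sowahc (Pearson r = 0.999), mt-Nd1 (r = 0.996), Lats2, Sh2b3 and P4htm (r = 0.992 each). The correlations describe log2 CPM over 6 libraries that differ between groups and in depth. Sowahc rose from 269 ± 46.2 to 678 ± 195 CPM (SD, n = 3). The mitochondrially encoded mt-Nd1 was among them, at 6.66 ± 3.58 CPM with vehicle and 128 ± 121 with cisplatin.

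Macrophages and other leukocytes, endothelial cells and stromal cells can be sources of chemokines in islets. Of 7 tested macrophage and antigen-presentation markers 5 were called lower and 0 higher, and the summed level of the 12 listed was 12.7 to 62.2 CPM with cisplatin against 142 to 218 with vehicle. Of the defining markers, Adgre1 was at 0 in all cisplatin libraries and had 10 counts with vehicle, Mrc1 was at 0 in both groups, and Csf1r had 1 count with cisplatin and 70 with vehicle. Over all tested rows 13.9% were called lower. A marker with as few cisplatin counts as Csf1r can meet the count filter only through its vehicle libraries and could then only come out lower. Nothing is therefore read from the number of lower macrophage markers against that share, nor from the endothelial and stromal numbers that follow. In these bulk samples fewer cells of a type and less RNA per cell cannot be told apart. Endothelial markers summed to 44.8 to 86.9 CPM with cisplatin and 68.2 to 108 with vehicle, with Cdh5 at 0 with cisplatin. Stromal markers summed to 30.4 to 50.4 and 48.6 to 146 CPM, with Dcn at 0 with cisplatin. Of 3 tested endothelial markers 1 was higher and 2 lower, and of 4 tested stromal markers 1 was lower. Duct markers overlapped between groups (1181 to 2171 CPM with cisplatin and 1043 to 1450 with vehicle), with Cftr and Muc1 at 0 with cisplatin, Sox9 at 0 with vehicle, and 0 of 2 tested markers called. Acinar markers summed to 8.58 to 30.4 CPM with cisplatin and 5.68 to 14.2 with vehicle, with Prss2, Cel and Pnlip at 0 in both groups. The part of these cell types in the chemokine values was not tested.

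The rest of the chemokine family was barely detected. Of 25 other chemokine genes with a probe, 1 had enough counts for a test, and 20 had fewer than 10 counts in each group. The tested gene, Ccl25, a chemokine that attracts T cells of the gut and thymus, was at 39.5 ± 4.50 CPM with cisplatin and 17.7 ± 5.66 with vehicle (SD, n = 3). It did not pass over all rows (adjusted p = 0.0653 with edgeR). Cx3cl1, the membrane-bound fractalkine, was at 0 in the cisplatin libraries, against 47 counts for vehicle, on its most abundant probe and was not tested in the reported fit. It passed as lower with no filter, without cisplatin library 1 and without vehicle library 2. Without cisplatin library 2 or 3 it was tested and did not pass (adjusted p = 0.0595 and 0.0581 with edgeR). In the fits that left a library out, Cx3cl1 met the filter only through its vehicle libraries and could then only come out lower. Ccl25 passed as higher without cisplatin library 1 and with probes summed per gene (adjusted p = 0.0428 and 0.0368 with edgeR). So of the other chemokines 0 were called in either direction in the reported fit, 1 had an unadjusted p under 0.05, and 1 was called higher by DESeq2.

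Counts were also low for the receptors that would read these signals. A probe at 0 in all libraries does not by itself show that its RNA was absent. Of 23 chemokine receptors 11 had 0 counts in all libraries, including Cxcr2, the receptor of Cxcl1, and 1 was tested. Ccr2, a receptor of Ccl2 and Ccl7, had 0 counts with cisplatin and 1 with vehicle. The tested receptor gene, Cxcr4, was at 3.68 ± 3.42 CPM with cisplatin and 13.6 ± 4.57 with vehicle (SD, n = 3) and did not pass (adjusted p = 0.149 with edgeR). Its other probe, not tested, had 1 count with cisplatin and 52 in the vehicle libraries, and with both probes summed Cxcr4 was called lower (log2 fold change -2.37, adjusted p = 0.0384). Cx3cr1, the receptor of fractalkine, had 7 counts with cisplatin and 10 for vehicle. In the reported fit 0 receptors were called, 0 had an unadjusted p under 0.05, and DESeq2 called 0.

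Other cytokine genes gave 3 tested members and 0 calls with edgeR, 1 at an unadjusted p under 0.05 and 1 with DESeq2. Il1a, Il12a, Il12b, Il15, Tnf, Csf2, Tnfsf9, Ifnb1 and Ifng had 0 counts in both groups on their most abundant probes. Lif, a cytokine of the IL-6 family, was not tested. It had 22, 9 and 0 counts with cisplatin and 2, 0 and 1 with vehicle, a ratio of 21.7 with a counting interval of 6.77 to 111, and the groups overlapped through cisplatin library 3; it was named after its values were seen. Mif, a constitutively stored cytokine, was at 45.2 ± 23.3 CPM with cisplatin and 18.9 ± 6.30 with vehicle (SD, n = 3), and passed without cisplatin library 3 (adjusted p = 0.0364), with probes summed per gene (adjusted p = 0.0460) and with DESeq2 (adjusted p = 0.0432), but not in the reported fit (adjusted p = 0.0653 with edgeR). Csf1, a macrophage growth factor, was at 27.6 ± 17.3 CPM in cisplatin islets and 23.4 ± 6.07 in vehicle islets. Its log2 fold change of 0.21 was -0.35 without cisplatin library 3 and -0.37 with library totals alone.

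Of 10 tested genes of IL-6 family and Gdf15 signalling, 4 were higher and 3 lower, with a median log2 fold change of -0.45 against -0.07 over all tested rows, of which 25.0% were called in either direction. Of the receptor subunits, Il6ra was at 0 with cisplatin and had 3 vehicle counts, and Il6st was at -0.16 ± 0.86 on the log2 scale (adjusted p = 0.918). The feedback inhibitors rose, Socs1 from 2.29 ± 0.631 to 28.6 ± 18.5 CPM (SD, n = 3; 3.60 ± 0.73 on the log2 scale) and Socs3 by 2.90 ± 0.71. Their vehicle libraries, with 7, 4 and 4 counts for Socs1 and 18, 2 and 7 for Socs3, did not meet the count filter alone. Both rows were kept through their cisplatin libraries, so nothing is read from the 4 higher against the share of all rows. The kinase gene Jak1, which acts directly below the receptors, fell by 2.38 ± 0.42 on the log2 scale, and its other tested probe was at -2.99 (adjusted p = 2.9e-04). The phosphatase gene Ptpn11 was at -1.67 ± 0.46. The 3 remaining calls, named after their values were seen, were Pias3, an inhibitor of Stat3 (1.18), Cebpb, a transcription factor of Il6 and acute-phase genes (0.97), and Ret, the signalling partner of the Gdf15 receptor (-1.39). The other tested probe of Ret was not called (-1.38, adjusted p = 0.0998), and that of Cebpb was (0.87, adjusted p = 0.0467). Gfral itself had 0 counts with cisplatin and 1 with vehicle. Several of these calls were lost when a library was left out. The adjusted p of Socs3 was 0.0723 with cisplatin library 2 left out (log2 fold change 2.26) and 0.0513 with vehicle library 3 left out (2.69), and its log2 fold change was 3.80 with vehicle library 1 left out. Socs1 was at 3.00 with library totals alone. Leaving out vehicle library 1 raised the adjusted p to 0.0904 for Ptpn11 and 0.0536 for Ret, and leaving out vehicle library 3 raised that of Ptpn11 to 0.0818. The log2 fold changes were then -1.65 and -1.66 for Ptpn11 and -1.36 for Ret, near those of all libraries. Cebpb and Pias3 were not called without cisplatin library 3 or any single vehicle library (adjusted p = 0.0609 to 0.153), or with library totals alone, nor Cebpb with no filter (adjusted p = 0.0611). Their log2 fold changes were 0.60 and 0.77 without cisplatin library 3, and 0.80 to 1.09 and 1.05 to 1.28 without single vehicle libraries. The number higher was 2 without cisplatin library 3, vehicle library 1 or vehicle library 2 and 1 without vehicle library 3. The number lower was 5 without cisplatin library 3 and 1 without vehicle library 1.

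Of 8 tested genes for other secreted senescence factors 0 were higher and 2 lower, against 11.1% and 13.9% of all tested rows, with a median of -1.27. Inhba, a subunit of activins named after its values were seen, was not tested. It had 70, 8 and 27 counts with cisplatin and 12, 5 and 10 with vehicle, a ratio of 8.17 with a counting interval of 5.31 to 13.0, and the groups did not overlap. Igfbp5, a binding protein of insulin-like growth factors, went from 52.5 ± 28.7 to 9.41 ± 1.95 CPM (SD, n = 3), a log2 fold change of -2.48 ± 0.54 (adjusted p = 0.00486 with edgeR). Its cisplatin libraries, with 11, 12 and 7 counts, did not meet the count filter alone, so the 2 lower are not read against the share of all rows. Vegfa, the vascular growth factor, was at -1.25 ± 0.32, and its adjusted p of 0.0110 became 0.0583, 0.0949 and 0.0573 with cisplatin library 1, vehicle library 1 and vehicle library 3 left out in turn (-0.97, -1.09 and -1.16 on the log2 scale). Of its 2 other tested probes one was called (-1.79) and one was not (-1.56, adjusted p = 0.0586). A count of 1 higher was obtained at an unadjusted p under 0.05, with DESeq2, with a mouse block and without cisplatin library 1 or 2 or vehicle library 1 or 3, and 2 without vehicle library 2. The number lower was 4 at an unadjusted p under 0.05 and 3 with DESeq2. It was 4 without cisplatin library 2 and 1 without vehicle library 1 or 3.

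Among metalloproteases and their inhibitors, 1 of 7 tested genes was higher and 0 were lower (median 0.40). The number higher is near the 11.1% of all tested rows called higher. DESeq2 gave 2 and 0, and 2 and 1 had an unadjusted p under 0.05. Adam15, a membrane protease, went from 24.2 ± 6.38 to 73.4 ± 10.7 CPM (SD, n = 3), a log2 fold change of 1.59 ± 0.37 (adjusted p = 0.00636 with edgeR), which was 1.11 and not called with library totals alone (adjusted p = 0.0715). The proteases that shed Cxcl16 did not pass, with Adam10 at -1.46 ± 0.66 and Adam17 at 2.15 ± 0.85; both were named after their values were seen. Timp3 was seen in vehicle islets alone, at 6 counts, and Cd63, a surface partner of Timp1, was at 0.08 ± 0.69. Without cisplatin library 3 the number higher was 2, and without cisplatin library 2 the number lower was 1.

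Of 14 tested NF-kappaB pathway genes 5 were higher and 0 lower, with a median of 0.83, where 11.1% of all tested rows were called higher and 13.9% lower. The precursor gene Nfkb2 rose from 7.60 ± 2.63 to 66.4 ± 34.1 CPM (SD, n = 3; log2 fold change 3.11 ± 0.53) and was at 2.53 with library totals alone. Its vehicle libraries, with 25, 13 and 12 counts, did not meet the count filter alone, so its call is not read against the share of all rows. The inhibitor gene Nfkbia rose from 57.7 ± 5.10 to 276 ± 32.6 CPM (2.26 ± 0.28), and its other probe also passed (2.97, adjusted p = 5.3e-05). Nfkbiz, a nuclear cofactor, rose by 1.83 ± 0.46, and Rela, the main transactivating subunit, by 1.58 ± 0.30. Ikbkg, a scaffold of the activating kinase and named after its values were seen, was at 1.11 ± 0.31. The Nfkbiz call was lost with cisplatin library 2 left out, where the log2 fold change was 1.05 (adjusted p = 0.0786; 198 CPM in that library against 58.3 and 68.6 in the others), and with vehicle library 3 left out (adjusted p = 0.0531). The Ikbkg call was lost with library totals alone and with cisplatin library 3, vehicle library 1 or vehicle library 2 left out (0.0609, 0.0978 and 0.0643, all adjusted p). Of its 3 other tested probes 1 was called, and their log2 fold changes were 0.90, 0.63 and 0.01. Leaving out any single library gave 4 to 6 higher and 0 lower. At an unadjusted p under 0.05 the numbers were 6 and 0, as with DESeq2.

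Of 12 tested genes of interferon and nucleic acid sensing, which act upstream of Cxcl10, 5 were higher and 0 lower, against 11.1% and 13.9% of all tested rows (median 0.75; 5 and 0 also at an unadjusted p under 0.05 and with DESeq2). Ddx58, which codes for the RNA sensor RIG-I, rose from 24.5 ± 6.78 to 94.8 ± 18.5 CPM (SD, n = 3), a log2 fold change of 1.94 ± 0.36. The transcription factor genes Irf9, Irf3 and Irf1 were at 1.72 ± 0.52, 1.28 ± 0.34 and 0.93 ± 0.32, and Eif2ak2, the RNA-activated kinase named after its values were seen, at 0.90 ± 0.30. With library totals alone Ddx58 was the one call left. The number was 2 without cisplatin library 2 or 3 and 1 without vehicle library 1 or 3. The Irf1 call held with cisplatin library 1 left out and was lost in the other 5 such fits (adjusted p = 0.0714 to 0.133), with no filter and after thinning, though its other tested probe was called (2.26, adjusted p = 5.9e-04). Of the 2 other tested probes of Irf3, one was called (1.93) and one was not (0.54). Irf9 was not called without cisplatin library 2 or 3 or vehicle library 1 or 3 (adjusted p = 0.0599 to 0.144), nor Irf3 without cisplatin library 2 or vehicle library 1 or 3 (adjusted p = 0.0571 to 0.0666). Adding the mouse as a block gave Eif2ak2 an adjusted p of 0.0622, and leaving out cisplatin library 3 or vehicle library 1 or 3 gave 0.0836 to 0.191. Irf9 and Eif2ak2 also lost their calls with no filter (adjusted p = 0.0574 and 0.178).

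**Figure D4:**
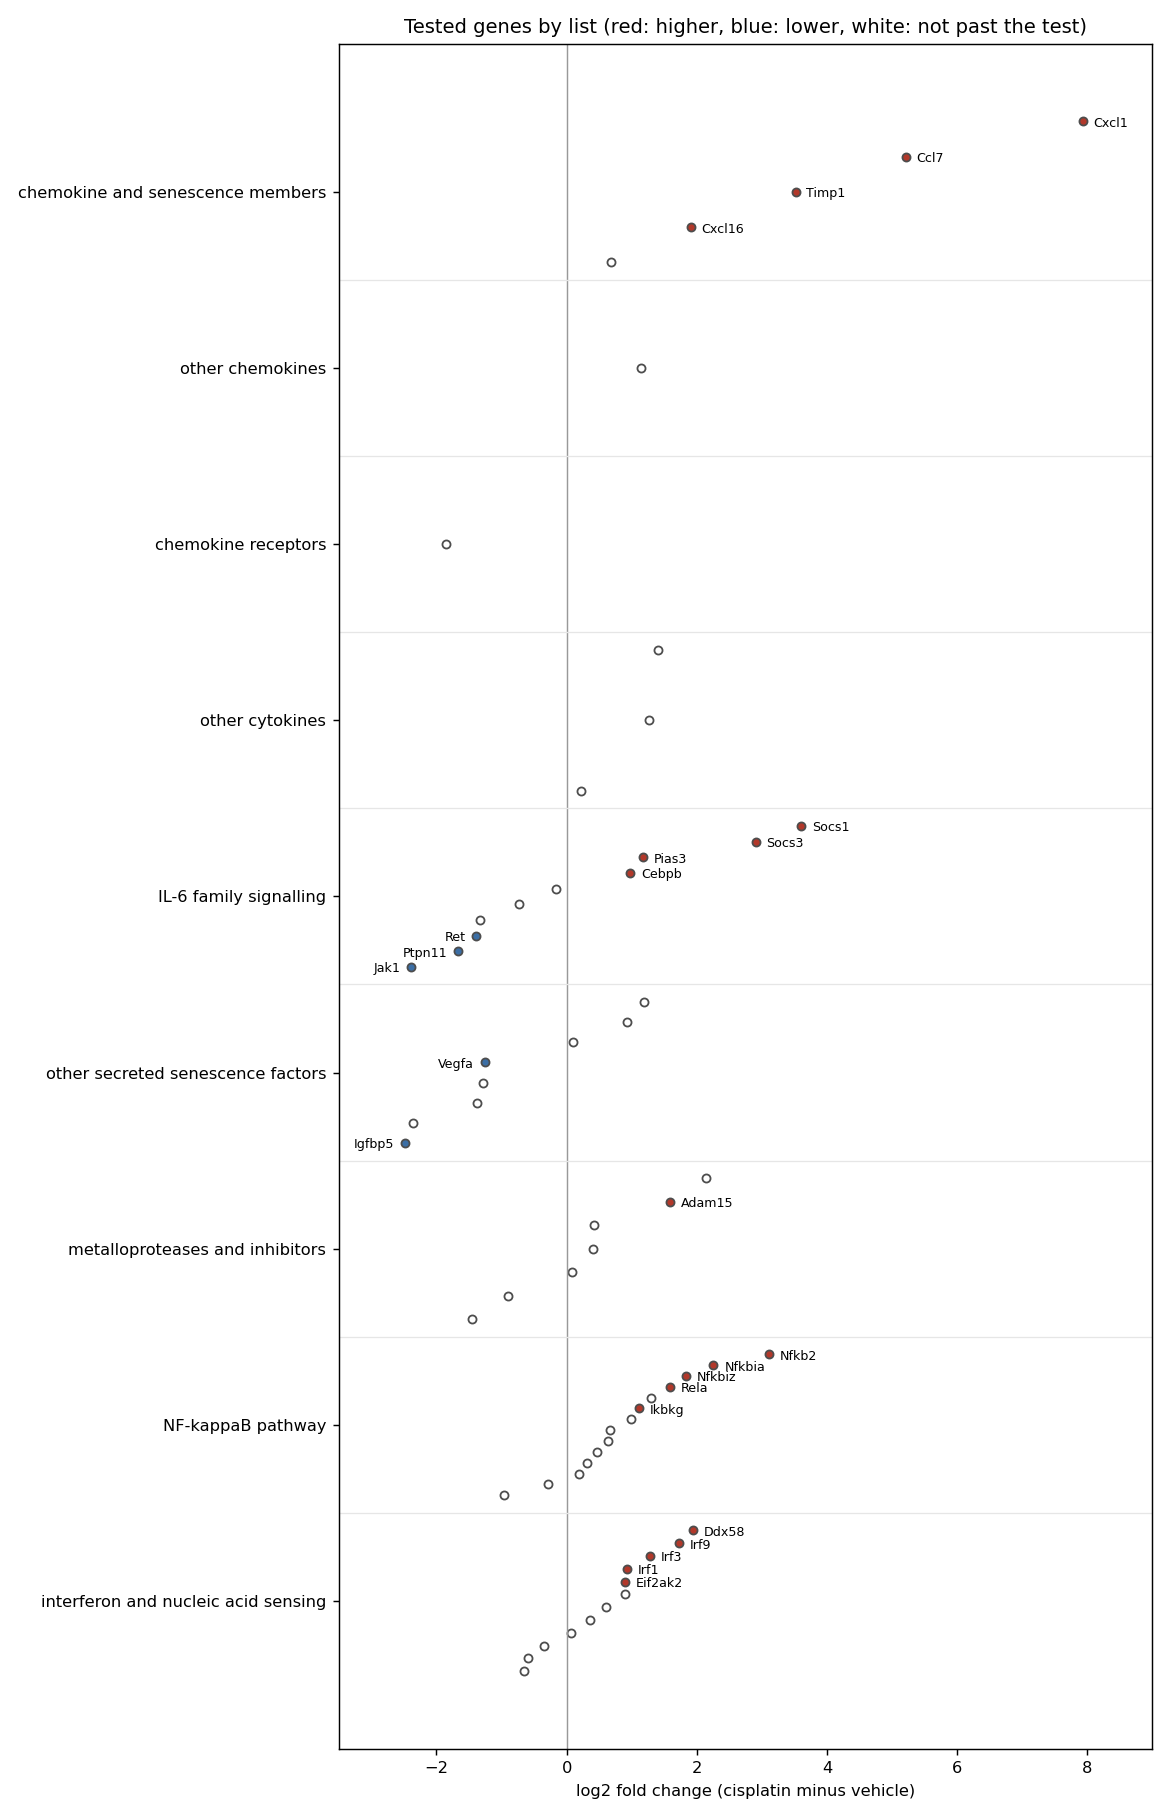
Log2 fold changes (cisplatin minus vehicle) of the tested members and of the tested genes of 8 related lists, a point per gene on its most abundant probe. Red points were called higher and blue points lower. The NF-kappaB row holds 5 red and 0 blue points, whereas the other secreted senescence factors hold 0 red and 2 blue.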

How the data were processed

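The authors deposited whole-number counts per probe row and library for 6 TempO-Seq libraries. Tools listed by the submitters' processing notes are STAR 2.7.10b, DESeq2 1.44.0 and fastp 0.23.2. Their roles and the alignment target were not given in the sources used here. Rows were kept by edgeR's filter at a minimum count of 10 (9381 rows), scaled with TMM and tested with edgeR 4.0.16 in R 4.3.3 (quasi-likelihood, robust, treatment only, two-sided). Benjamini-Hochberg adjustment ran over all rows, and rows were called under 0.05. CPM divides counts by the TMM-scaled total of tested rows. A listed gene is represented by its probe with the highest mean CPM. Counting intervals are exact (95%), cover counting error only and pool 3 libraries, as does the floor of 3 counts.

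Members, lists and tests were chosen with earlier results of these data known. The naming rule took all members, for each list the 4 called genes that changed most, or its 2 most abundant genes where 0 were called, and the 5 rows most like the member with the highest mean CPM. Pairing comes from the animal identifier in the labels, which both libraries of a mouse share. Library deviations from their group mean correlated at -0.116 to 0.219 within mice and at -0.227 to 0.168 between mice. The analysis was tested on simulated data. Alternatives were DESeq2 1.42.0, RLE factors, library totals alone, other filters, a mouse block, probes summed per gene, thinning, leaving out mitochondrial rows and leaving out each library. The library totals, from 1116916 to 2272276 counts, limit the precision of rows with few counts.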

Additional observations from a re-analysis of the deposited data

How the results depend on the processing

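The called member rows numbered 4 in each alternative run, except that 3 were called with a filter at a mean CPM of 10 and after thinning every library to the shallowest, where Ccl7 was not tested. One choice, leaving out mitochondrial rows, was added after the data were seen. With the mouse as a replicate block the log2 fold changes were 8.07 for Cxcl1, 5.45 for Ccl7, 3.55 for Timp1, 1.88 for Cxcl16 and 0.28 for Gdf15, and no member call changed. Among the listed genes the block ended the call of Eif2ak2 (0.90). After thinning Cxcl1 was at 8.95. Leaving out single libraries gave 7.47 to 9.31 for Cxcl1, 4.73 to 7.30 for Ccl7 and -0.45 to 1.05 for Gdf15, with the negative value without cisplatin library 1.

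Over all rows, library totals alone gave 459 higher and 2023 lower, against 1040 and 1304. Leaving out single libraries gave 1085 to 2538 called, 504 to 1244 higher and 581 to 1294 lower, with 1085 without vehicle library 1 and 1321 without vehicle library 3.

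With library totals alone 2 IL-6 family genes, 0 metalloprotease genes and 1 interferon gene were higher, and 4 other senescence factors, 2 metalloprotease genes and 1 NF-kappaB gene were lower. With no filter 1 other chemokine was lower, and 1 cytokine, 1 other senescence factor and 2 interferon genes were higher. A mean CPM of 10, the mouse block and leaving out mitochondrial rows each gave 1 other senescence factor higher. DESeq2 gave 1 other chemokine, 1 cytokine, 1 other senescence factor and 2 metalloprotease genes higher. Probes summed per gene gave 1 other chemokine, 1 cytokine and 2 other senescence factors higher and 1 receptor, 4 other senescence factors and 1 NF-kappaB gene lower. Without single libraries the ranges were 0 to 1 for other chemokines in either direction and for cytokines higher, 1 to 4 higher and 1 to 5 lower for IL-6 family genes, 0 to 2 higher and 1 to 4 lower for other senescence factors, 1 to 2 higher and 0 to 1 lower for metalloprotease genes, and 1 to 5 higher for interferon genes. The cause of these moves was not tested. Depth limits Cxcl2, Cxcl10, Ccl2 and Il6, whose rows were too sparse to test in the reported fit.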
